A study of Drosophila melanogaster with 6 samples.

Results

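The 2 Gcn5 peak lists from Kc cells, 1 from cells treated with double-stranded RNA against CP190 and 1 from control cells treated with double-stranded RNA against GFP, were compared site by site. All peaks on the major chromosome arms (X, 2L, 2R, 3L, 3R and 4) were used. This gave 4649 control peaks and 3808 CP190 RNAi peaks, or 8457 of the 14386 peaks in the 3 Gcn5 lists of the series. The third Gcn5 list comes from S2 cells with GFP RNAi, and its 4984 peaks on the same arms served only as an outside readout. Kc and S2 are lines derived from Drosophila melanogaster embryos. GFP RNAi, in both lines, stands for treatment with double-stranded RNA that has no target in the fly genome. Per the labels' protocols, both Kc cultures received 90 µg of double-stranded RNA for each 6000000 cells, were crosslinked with 1% formaldehyde and were immunoprecipitated with 5 µg of a rabbit polyclonal Gcn5 antibody. Each condition has 1 library, so no difference below has a replicate check and no test was made. The peak lists do not show how far CP190 was depleted.

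Gcn5 is the lysine acetyltransferase of the SAGA and ATAC coactivator complexes, which acetylate histones at active promoters and enhancers. It does not bind a DNA sequence itself and reaches chromatin through partners. CP190 carries zinc fingers and a BTB domain, and it is brought to insulators and to many promoters by DNA-binding insulator proteins such as CTCF, BEAF-32 and Su(Hw). The comparison addresses whether CP190 is needed for Gcn5 to occupy its sites, which is the question the series' title poses.

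A site was called shared when the 2 lists overlapped there by 1 bp or more, missing when a control peak had no CP190 RNAi peak, and gained in the opposite case. Of the control peaks 1997 of 4649 were missing, which is the 43.0% against which the counts below are read. Of the CP190 RNAi peaks 1123 of 3808 were gained (29.5%). In bases, the control peaks covered 7.51 Mb and the CP190 RNAi peaks 6.26 Mb, of which 4.28 Mb lay in both lists. That was 57.0% of the control bases and 68.4% of the CP190 RNAi bases. Most of the control sequence outside CP190 RNAi peaks belonged to whole missing peaks, with 2.60 Mb there and 0.631 Mb in the trimmed parts of shared peaks. The read depth of both libraries is unknown, and peak number and width both grow with depth and with enrichment. A missing peak is thus an absent call and not a measured absence of Gcn5.

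Missing and gained shares differed most from each other among the strongest peaks, while both were highest among the weakest. The score is the peak caller's own value and ranks peaks only within its list. In the decile of the control list with the highest scores, 43.2% of the peaks were missing (exact 95% binomial interval 38.7 to 47.9%, counting error only). The share was lowest in the fourth decile, at 35.1% (30.7 to 39.6%), and highest in the last, at 55.4% (50.7 to 60.0%). In the CP190 RNAi list the gained share was 3.15% in the strongest decile (1.64 to 5.44%) and was higher in each later one, up to 57.1% in the weakest (52.0 to 62.1%). The strongest control decile was thus missing about as often as the whole control list (43.0%). Strong CP190 RNAi sites almost always had a control peak, against a gained share of 29.5% over their whole list.

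**Figure D1:**
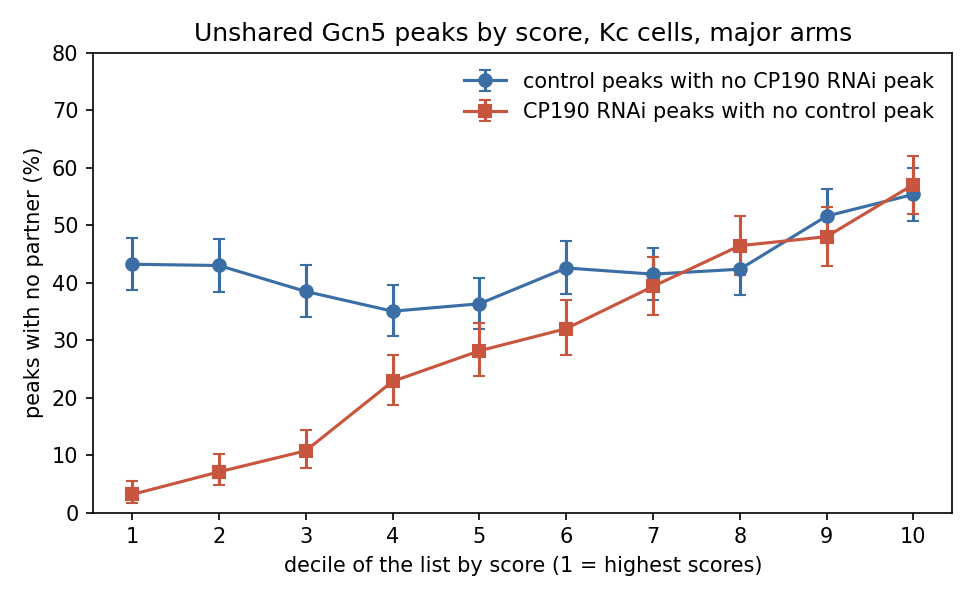
Share of peaks with no partner in the other list (y axis, %) by decile of score within the own list (x axis, 1 = highest scores), with exact 95% binomial intervals as bars. The control line runs between 35.1% and 55.4%, while the CP190 RNAi line climbs from 3.15% to 57.1%.

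Among the strongest control peaks, the missing ones tended to be narrow. Of the 500 highest-scored control peaks, 220 were missing, 129 met a peak within the highest 500 of the CP190 RNAi list, 71 met one ranked after 500 and up to 1500, and 80 met one ranked below 1500. The median width of the 220 missing peaks was 1306 bp, with quartiles of 1192 and 1605 bp. The 80 that met only a low-ranked peak had a median of 1650 bp, the 71 in between 1862 bp, and the 129 that were high in both lists 2419 bp (1852 and 3243 bp). Missing control peaks were narrower than kept ones by their medians in all 10 score deciles, at 1315 against 2049 bp in the strongest and 990 against 1314 bp in the weakest. An S2 peak was present at 474 of the 500 sites, and at 91.5 to 98.8% of the sites in each of these 4 groups. Over the whole control list, an S2 peak was present at 72.5% of the missing and 58.6% of the kept peaks.

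The 500 highest-scored CP190 RNAi peaks came from all levels of the control list. They were 13.1% of their list, and the 500 control peaks 10.8% of theirs. Of them 20 were gained, 129 met a control peak within its highest 500, 185 met one ranked after 500 and up to 1500, and 166 met one ranked below 1500. The share with an S2 peak declined with control rank, from 92.2% of the 129 to 78.4% of the 185 and 60.8% of the 166. Such a decline was not particular to the top 500. Over all sites where 1 control peak met 1 CP190 RNAi peak, the share fell from 88.1% in the highest quintile of control rank to 36.9% in the lowest. Of the 20 gained peaks 7 had an S2 peak, against 25.9% of all gained peaks. The CP190 RNAi top 500 had a median width of 1986 bp and the control top 500 of 1604 bp.

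At the head of the control list, 2 of the 5 highest-scored sites were missing. The missing sites were the first, at 3R 13440532 to 13443907, and the fifth, at 4 1133056 to 1134734. Both had an S2 peak, as had 94.8% of the 500 highest-scored control sites. The site ranked second, at 3L 14182451 to 14184659, kept a peak of 2047 bp that ranked 83 in the CP190 RNAi list. The site ranked 3, at 2R 1902545 to 1905867, kept almost its full width (3323 bp in the control and 3336 bp after CP190 RNAi) and ranked 57. At the site ranked 4, 2R 21069933 to 21071349, an 846 bp peak remained of 1417 bp, and it ranked 2949 of 3808.

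All of the 5 highest-scored CP190 RNAi sites had a control peak. The strongest, at 3R 8327361 to 8337358, was 9998 bp wide with a score of 3195.85, and the next site of that list scored 1270.96. It spanned 2 control peaks, at 8327373 to 8333609 (6237 bp, rank 59 in the control list) and at 8333680 to 8337262 (3583 bp, rank 460). The second, at 3L 3191868 to 3199888, met a control peak ranked 40 that was 7896 bp wide, against 8021 bp after CP190 RNAi. The third, at 3L 3221675 to 3227040, ranked 6 in the control. The site at X 7826722 to 7830786 ranked 62 in the control and 4 after CP190 RNAi. The site at 2L 8040237 to 8043942 ranked 785 in the control, where it was 2267 bp wide, and 5 after CP190 RNAi, where it was 3706 bp wide. No gene is named for these sites, because no annotation of the dm3 build was used here.

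Most shared sites were simple. The overlaps formed 2629 groups, of which 2562 were 1 control peak with 1 CP190 RNAi peak. In 44 groups 1 control peak was met by 2 or 3 CP190 RNAi peaks, and these control peaks were wide, with a median of 3606 bp against 1534 bp for the one-to-one sites. In 13 groups 1 CP190 RNAi peak joined 2 control peaks. The remaining 10 groups had at least 2 peaks on each side. The control peak met by the most was 8930 bp wide, at 3L 626942 to 635871. It had a score of 90.52 and was met after CP190 RNAi by peaks of 1318, 2379 and 4400 bp, of which the middle one ranked 254 and the others 2976 and 3331.

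Some sites lay near the limit set by the overlap of 1 bp. Within 1000 bp of a peak of the other list lay 141 of 1997 missing peaks (7.06%) and 150 of 1123 gained peaks (13.4%). The shared sites with the smallest overlap met over 4 bp at 2L 10404746 to 10405762, over 14 bp at X 8300889 to 8302423 and over 15 bp at X 514836 to 515865. The missing control peaks nearest to a CP190 RNAi peak were 26 bp from it at X 8615142 to 8616251, 29 bp at X 11571071 to 11572074 and 37 bp at 3L 20398883 to 20400292. The last of these lies beside 1 of the 5 widest gained peaks, at 3L 20390708 to 20398845 (8138 bp).

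Sites present in both lists often differed in rank. Over the 2562 one-to-one sites, which overlap by the rule that paired them, the peak centres lay a median of 62 bp apart, and 86.5% lay within 250 bp. To compare ranks, these sites alone were ranked by score in each list, so that both rankings have the same length. Spearman's rho between the rankings was 0.36 (n = 2562 sites from 1 library a side, which share genomic position and mappability). The median site differed by 530 places in either direction (quartiles 206 and 955). Of the sites, 30.1% fell in the same quintile of both rankings, where unrelated rankings would place about 1 in 5. Of the 513 sites in the highest control quintile, 225 were in the highest quintile after CP190 RNAi (43.9%) and 65 in the lowest (12.7%).

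The 8 sites that moved down most ranked high in the control, as a large move down requires. They kept CP190 RNAi peaks of 592 to 2488 bp. The scores of these peaks were 50.2 to 57.54, near the lowest score of the CP190 RNAi list on these arms (50). Sites over 1000 places lower after CP190 RNAi numbered 307 of 2562 (12.0%), and sites over 1000 places higher numbered 281 (11.0%). The site that moved furthest down, 2R 3340740 to 3342626, ranked 13 in the control with 1887 bp and 2450 after CP190 RNAi with 1044 bp. The site at X 17713990 to 17716130 ranked 69 with 2141 bp in the control and 2415 with 1225 bp after CP190 RNAi. The site at 3L 1890535 to 1892516 ranked 150 and 2525, and its peak shrank from 1982 to 592 bp. The site at 3L 3251599 to 3252757 ranked 124 and 2515, with 1159 and 676 bp. The other 4 of the 8 largest moves down were at 3L 15506902 to 15510338, 3R 12398650 to 12400376, X 18132219 to 18134057 and 3R 14870084 to 14871174, with control ranks of 149 to 177 and CP190 RNAi ranks of 2491 to 2557. All 8 were narrower after CP190 RNAi, with width differences of -337 to -1390 bp, and all 8 had an S2 peak. They lay in the highest control quintile, where 88.1% of the one-to-one sites had one.

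The 8 sites that moved up most ranked low in the control, as a large move up requires, and were of mixed width change. Their control scores were 50.32 to 69.59, near the lowest score of the control list on these arms (50.08). The site at 3R 228135 to 230424 ranked 2547 in the control and 66 after CP190 RNAi, at nearly the same width (2290 and 2246 bp). The site at 3R 5957677 to 5960809 ranked 2518 and 197, and was 3133 and 2208 bp wide. The site at 3R 14222136 to 14225949 ranked 2268 and 59, and the site at 2L 21218001 to 21222066 ranked 2256 and 89. At 2R 16557610 to 16559237 the peak was 1628 bp wide in the control and 3252 bp after CP190 RNAi, with ranks of 2461 and 261. The remaining 3 of these 8, at 3R 26212543 to 26215630, 2R 12949727 to 12950894 and 2L 4462609 to 4464060, had CP190 RNAi ranks of 284, 406 and 332. Of the 8 sites 3 had an S2 peak, and all 8 lay in the lowest control quintile, where 36.9% of the one-to-one sites had one. Of the 8, 4 were narrower after CP190 RNAi.

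**Figure D2:**
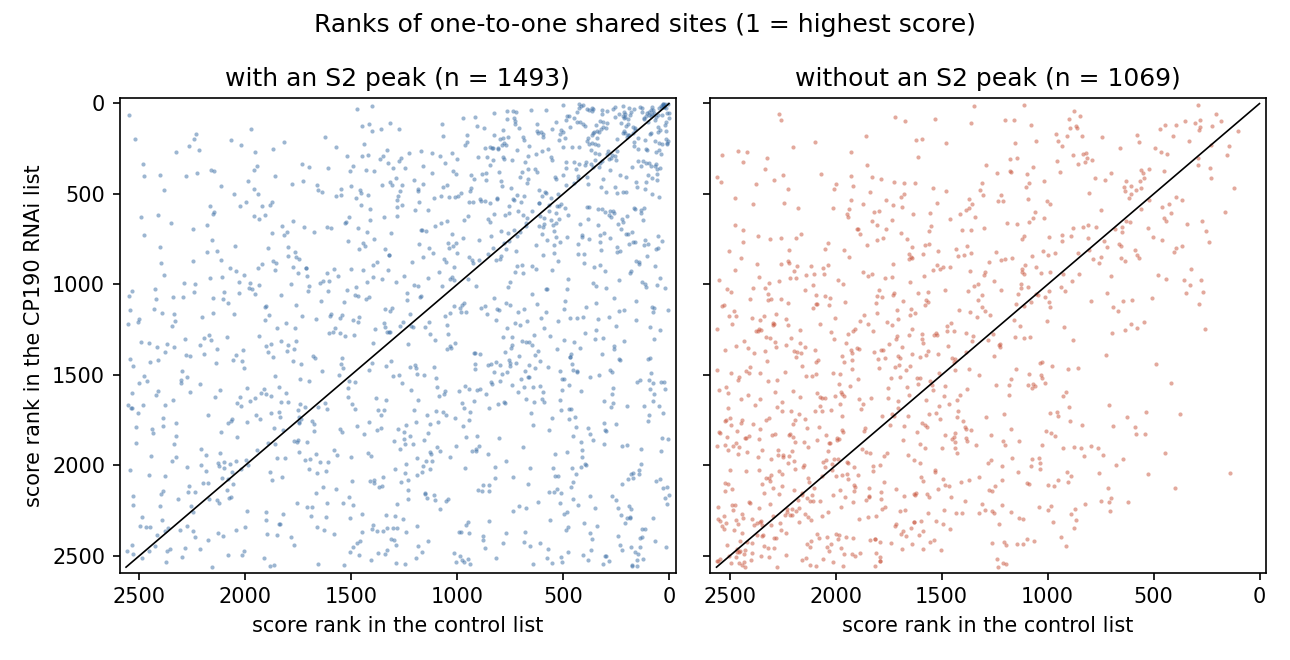
Score rank of each one-to-one shared site among the 2562 such sites in the control list (x axis) and in the CP190 RNAi list (y axis), with rank 1 at the upper right, for sites with (left, n = 1493) and without (right, n = 1069) an S2 peak. The line marks equal ranks, and the lower right corner, strong in the control and weak after CP190 RNAi, is filled mainly in the left panel. That panel also holds 452 of the 513 sites in the highest control quintile (88.1%).

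Large moves down among the strongest sites were more frequent where S2 cells also had a peak. In the highest control quintile, 150 of 452 sites with an S2 peak moved down by over 1000 places (33.2%, 28.9 to 37.7%), against 5 of 61 without one (8.20%, 2.72 to 18.1%). The 452 and the 61 sites also differed in median control width (1868 and 2419 bp) and median control score (424.47 and 358.64). The part of width and score in the split was not tested. The split did not extend to the next quintile, where the shares were 64 of 350 (18.3%, 14.4 to 22.7%) and 38 of 162 (23.5%, 17.2 to 30.7%). At the weak end, sites with an S2 peak moved up somewhat more often. In the lowest control quintile 68 of 189 with an S2 peak moved up by over 1000 places (36.0%, 29.1 to 43.3%), against 92 of 323 without one (28.5%, 23.6 to 33.7%), and these intervals overlap. Over all one-to-one sites, S2 peaks were found at 73.9% of the quintile that moved down most and at 48.8% of the quintile that moved up most. Sites strong in the control can only move down far and weak ones only up, and 88.1% of the highest control quintile and 36.9% of the lowest had an S2 peak.

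Peaks were narrower after CP190 RNAi at most shared sites. The one-to-one sites had a median width of 1534 bp in the control and 1393 bp after CP190 RNAi. The median difference within sites was -87 bp (exact 95% interval of the median -98 to -81 bp, quartiles -236 and 19 bp). That interval takes the sites as independent and does not cover variation between libraries. The peak was narrower at 1816 sites, wider at 744 and equal at 2. At 1152 sites (45.0%) the CP190 RNAi peak lay entirely inside the control peak, and at 289 sites the reverse held. Narrowing went along with rank. In the quintile that moved down most the median difference was -181 bp and 82.1% of the sites were narrower. In the quintile that moved up most it was -39.5 bp and 61.1% were narrower, so narrowing was the more frequent direction even there. The depth of the libraries can set such a difference in width, and its part in the result was not tested.

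**Figure D3:**
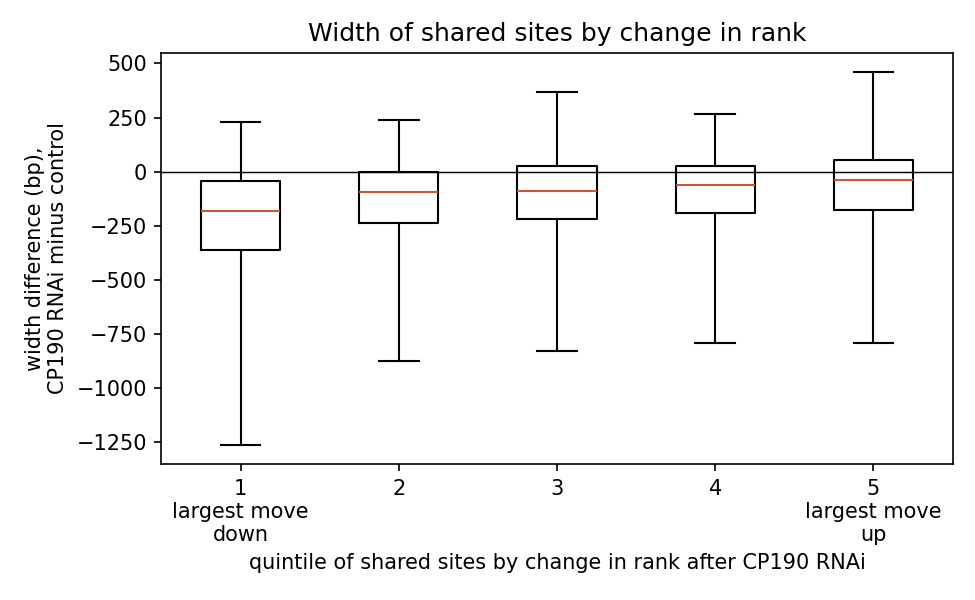
Width after CP190 RNAi minus width in the control (y axis, bp) for one-to-one shared sites in quintiles of rank change (x axis, 1 = moved down most, 5 = moved up most). Boxes span the quartiles with the median as a line and whiskers reach the 5th and 95th percentiles. The medians run from -181 bp to -39.5 bp.

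A few sites changed width by several kilobases. The largest loss was at X 20929450 to 20933912, where 4463 bp in the control became 946 bp and the rank went from 27 to 1713. The next losses were at X 5820529 to 5827128 (6600 to 3600 bp), 2L 22201030 to 22207041 (6012 to 3302 bp), 3L 16702116 to 16706086 (3971 to 1277 bp) and 3R 8745574 to 8751510 (5937 to 3268 bp). The rank of these 4 sites moved by 535 places at most. The largest gain, at 3R 16375822 to 16378641, went from 2820 to 8531 bp, although its rank went from 126 to 2396. The other 4 of the 5 largest gains, of 1938 to 2796 bp, were at 3R 11067324 to 11071117, 2L 15747357 to 15749085, 2R 4981685 to 4984335 and 2R 14284934 to 14286518. The first of these ranked 38 in the control and 15 after CP190 RNAi.

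Missing and gained sites lay at different distances from the other list. A missing control peak was a median of 13.1 kb from the nearest CP190 RNAi peak (quartiles 4.49 and 30.5 kb), and 536 of 1997 had one within 5 kb (26.8%). A gained peak was a median of 4.72 kb from the nearest control peak (1.99 and 10.6 kb), and 583 of 1123 had one within 5 kb (51.9%, 48.9 to 54.9%). The control list is the denser, and the part of density in this difference was not tested. Of the gained peaks within 2 kb of a control peak, 214 of 284 lay beside a kept site (75.4%, 69.9 to 80.3%), while kept sites were 57.0% of all control peaks. Beyond 5 kb the nearest control peak was a kept one for 320 of 540 gained peaks (59.3%, 55.0 to 63.4%). Within 5 kb it was a kept one for 423 of 583 (72.6%, 68.7 to 76.1%). In the other direction, computed within 5 kb and not within 2 kb, there was no such excess. The nearest CP190 RNAi peak was a shared one for 366 of 536 missing peaks within 5 kb (68.3%), while 70.5% of all CP190 RNAi peaks were shared. Kept control peaks also lay closer to the next peak of their own list, at a median of 4.81 kb against 7.16 kb for missing ones. The part of this spacing in the share of gained peaks beside kept sites was not tested. An S2 peak was present at 31.0% of the gained sites within 2 kb of a control peak and at 23.3% of those beyond 5 kb.

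**Figure D4:**
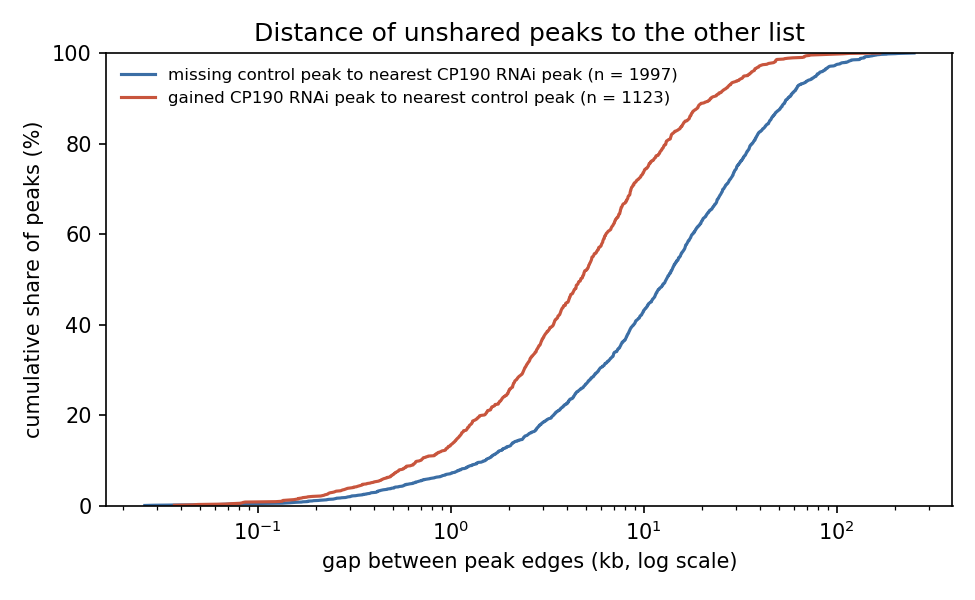
Cumulative share of unshared peaks (y axis, %) against the gap to the nearest peak of the other list (x axis, kb, log scale), for missing control peaks (n = 1997) and gained CP190 RNAi peaks (n = 1123). The gained curve lies to the left, with medians of 4.72 and 13.1 kb.

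Wide sites were found among both unshared classes. The widest missing control peaks were at 2L 15586204 to 15593909 (7706 bp), 3R 6022445 to 6029998 (7554 bp), 3R 5165958 to 5172851 (6894 bp), 2L 20158709 to 20164661 (5953 bp) and 2R 12426801 to 12432718 (5918 bp). Of these 1 had an S2 peak, against 72.5% of all missing peaks. The best ranked of them, at 2L 20158709, was 870 in the control list. The widest gained peaks were at 3R 6206505 to 6215112 (8608 bp), 3L 20390708 to 20398845 (8138 bp), 3R 4871917 to 4879370 (7454 bp), X 5792275 to 5799257 (6983 bp) and 3L 2107099 to 2113805 (6707 bp). They ranked from 1036 to 3533 in the CP190 RNAi list, and 3 of them had an S2 peak, against 25.9% of all gained peaks. Gained peaks as a class had a median width of 1290 bp and a median score of 78.58, against 1402 bp and 130.80 for shared CP190 RNAi peaks. Within deciles of score the order of the widths was the opposite, with gained peaks wider than shared ones by their medians in 9 of 10 deciles, from 2432 against 2079 bp in the strongest to 1141 against 1142 bp in the weakest, the exception.

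Missing sites tended to follow each other along the chromosome. After a missing control peak the next peak on the arm was missing in 1071 of 1995 cases (53.7%, 51.5 to 55.9%), and after a kept one in 922 of 2648 (34.8%, 33.0 to 36.7%). Runs of 5 or more neighbouring peaks of the same fate held 547 of the 1997 missing and 1121 of the 2652 kept control peaks. Kept peaks were the more frequent, at 57.0% of the control list, and the part of this share in the runs was not tested. The longest missing run had 15 peaks over 377 kb, at 2L 13911347 to 14288654, with control scores of 52.15 to 563.11. In S2 cells 14 of the 15 had a peak, against 72.5% of all missing peaks. The interval held 3 CP190 RNAi peaks, which within a run of missing control peaks are gained by definition. A run of 14 missing peaks lay at 2L 20158709 to 20341966, with 9 S2 sites and 1 gained peak. The higher-scored of 2 runs of 12, at 3R 1949365 to 2137737, had an S2 peak at each site and no CP190 RNAi peak. The longest kept run, at 2L 10332668 to 10436567, had 16 peaks over 104 kb, with 19 CP190 RNAi peaks of which 2 were gained. Of 3 kept runs of 14 peaks, those with the highest-scored peaks were at X 11572141 to 11786529 and at 3R 19747380 to 19995714, the latter with 8 gained peaks among 22.

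Over windows of 1 Mb the missing share varied, and the part of counting error in this spread was not tested. The intervals given for single windows do not allow for their choice as extremes. The 113 windows with at least 20 control peaks had a median share of 43.3% (quartiles 35.7 and 50%), with extremes of 14.3 and 71.1%. The highest share was at 3R 15000001 to 16000000, where 32 of 45 control peaks were missing and 5 CP190 RNAi peaks were gained (71.1%, 55.7 to 83.6%). It was followed by 3L 22000001 to 23000000 with 16 of 23 and 3L 6000001 to 7000000 with 23 of 35. The lowest share was at 3R 19000001 to 20000000, where 5 of 35 were missing and 15 were gained (14.3%, 4.81 to 30.3%). The windows at X 11000001 to 12000000 and X 6000001 to 7000000 had 8 of 50 and 10 of 45 missing. Gained peaks outnumbered missing ones in 13 of the 113 windows. Missing peaks outnumbered gained ones on each of the 6 arms, as follows from a longer control list on each and mostly one-to-one overlaps. On 3R 488 of 1116 control peaks were missing (43.7%) and 264 of 904 CP190 RNAi peaks were gained (29.2%). The missing share ran from 38.5% on X to 46.6% on 2L, against 43.0% over all arms. The gained share ran from 21.4% on chromosome 4 (9 of 42) to 32.0% on 2R, against 29.5% over all arms.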

How the data were processed

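Chromatin immunoprecipitated with a Gcn5 antibody was sequenced, and 1 peak list per library was used. The submitters' processing notes name build dm3 together with Bowtie, MACS, bedtools and HOMER. Versions, the role of each tool, thresholds and any use of the 3 input libraries are not stated in those notes as given here. The deposited score of each peak is the authors' value, with no normalization between libraries, and served only to rank or filter peaks within a list. Groups came from the sample titles. Positions are printed 1-based, with the starts of the lists taken as 0-based. No dm3 genome or annotation was used here, so no gene, promoter or sequence is given and the planned gene lists were not run.

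Overlaps were computed in Python 3.11.15 (pandas 2.3.3, networkx 3.6.1), checked with bedtools 2.31.1, and tested on simulated data. Ranks of shared sites were taken among the one-to-one sites. Exact (Clopper-Pearson) intervals cover counting error only, and neighbouring peaks are not independent. Read depth is unknown. Sites were named by rule: the extremes of score, rank change, width change, gap, run length and window share. Members, lists and rules were chosen with earlier results of these data known. Windows of 1 Mb, the fate of the top 500 and the counts by S2 status were added to the fixed comparisons.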

Additional observations from a re-analysis of the deposited data

How the results depend on the processing

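The overlap rule and the score threshold moved the unshared shares. Missing and gained shares were 45.2% and 33.1% with 50% reciprocal overlap, 52.0% and 41.4% with centres within 250 bp, and 39.9% and 25.6% with gaps of at most 1000 bp. They were 55.9% and 35.7% with scores of 100 or more in both lists, and 40.6% and 39.7% with lists of equal length, which are close by construction. Merging peaks across 200 bp or using all sequences left both inside their intervals. Spearman's rho of shared sites was 0.38 with 50% reciprocal overlap and 0.34 at scores of 100 or more. The median width difference was -86, -86 and -86.5 bp under its 3 alternatives. Of the missing peaks 20.4% had a CP190 RNAi peak within 5 kb between centres, and between edges 13.1% had one within 2 kb and 43.1% within 10 kb. The causes were not tested. The excess of S2 sites in the quintile that moved down most over that which moved up most was 25.1 points, and 22.7 to 25.0 points under 3 alternatives added once the data had been seen. No paired analysis was possible because there is a single library on either side, which also leaves no replicate to leave out.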
